A study of Cucumis sativus with 4 samples.

Results

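In young cucumber (Cucumis sativus) fruits, 31 genes of 20000 listed were higher in both replicate 1 libraries than in both replicate 2 libraries, whichever of 2 fruit-length lines the library came from. They were chosen by their measured values: the lower replicate 1 value had to be at least 10 RPM and at least 25% above the higher replicate 2 value, with a mean over the 4 libraries under 500 RPM. RPM scales a gene's reads to a library total of 1000000 over all listed genes. The rule used the values of all 4 libraries, so the levels and replicate ratios below are descriptions and carry no test.

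The libraries came from 408, a cucumber line with long fruits, and from 409, its near-isogenic line with short fruits. Each line was sampled as 2 pools, each made of 3 to 5 fruits, 2 to 4 cm long, from separate plants in 1 greenhouse. A pool averages its fruits and all tissues within them, so fewer cells of a type and less RNA per cell cannot be told apart, nor can the line be told apart from growth stage at that size. Fruits of both lines were picked together. The labels do not say whether a replicate number stands for a shared harvest, RNA extraction or sequencing run, and they do not tie 408 replicate 1 to 409 replicate 1.

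A cucumber fruit develops from an ovary below the flower, grows first by cell division and then mostly by cell expansion, and holds skin, flesh, vascular strands and immature seeds. Near-isogenic lines are bred to share most of their genome, so that they differ mainly in the trait selected and in the chromosome segments around it. The genes are known here by ID alone. None of the 20000 listed IDs matched the reference table of 23999 cucumber genes. The lack of a match is therefore not particular to the 31, and no roles or positions are given for them.

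The name of the group, genes highest in the intermediate libraries, was checked against the whole table. On the first principal component of log2(RPM + 1), computed from 17391 genes that reached 1 RPM in 2 or more libraries, the scores were 37.2 in 408 replicate 1 and -37.8 in 409 replicate 1, against 76.7 in 408 replicate 2 and -76.1 in 409 replicate 2. Both replicate 1 libraries therefore lay between the replicate 2 libraries on this component, which held 89.2% of the variance. The estimated depth was 12496000 reads in 408 replicate 1 and 13753000 in 409 replicate 1, against 13808000 in 408 replicate 2 and 12256000 in 409 replicate 2, so that within 408 the replicate 1 library was the shallower and within 409 the deeper.

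Few genes had this pattern. Of the 11692 genes that met both limits on level, the 31 made up 0.265%. Both replicate 1 libraries lay above both replicate 2 libraries, by any margin, in 6.27% of the 17391 tested genes, and the opposite arrangement was found in 2.39%. At the same margin and limits, 1 gene was higher in both replicate 2 libraries, 3331 genes were higher in both 408 libraries and 2404 were higher in both 409 libraries. Over all tested genes the median log2 difference of replicate 1 minus replicate 2 was 0.06, so the table leaned slightly to replicate 1. By the median-of-ratios scaling factors the lean lay mainly in 409, with 1.006 in replicate 1 against 0.947 in replicate 2. In 408 the factors were 1.027 in replicate 1 and 1.022 in replicate 2. The count of genes higher in both replicate 2 libraries was not repeated after rescaling. Split over orthogonal contrasts, the replicate number held 5.52% of the sum of squares of all tested genes, against 80.4% for the line and 14.1% for the difference of the replicate contrast between lines. In the 31 genes the replicate number held 66.1% and the line 10.9%, a split that the rule itself favours.

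The excess of the replicate 1 libraries was mostly moderate. The mean of both replicate 1 libraries was 1.27 to 4.11 times the mean of both replicate 2 libraries, with a median of 1.67 over the 31 genes. The stricter ratio used by the rule, the lower replicate 1 value over the higher replicate 2 value, had a median of 1.35 and a highest value of 1.72. It reached 1.3 to below 1.4 in 12 genes, 1.4 to below 1.5 in 6 genes and 1.5 or more in 3 genes, and it was 2 or more in none. Together the 31 genes took 0.206% of all RPM in 408 replicate 1 and 0.148% in 409 replicate 1, against 0.0831% in 408 replicate 2 and 0.101% in 409 replicate 2. Their values ran over 11.4 to 323 RPM in 408 replicate 1 (median 39) and 11.6 to 220 RPM in 409 replicate 1 (median 36.1). In the replicate 2 libraries they ran over 0.9 to 128 RPM in 408 (median 16.7) and 7.2 to 124 RPM in 409 (median 27.5).

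**Figure D1:**
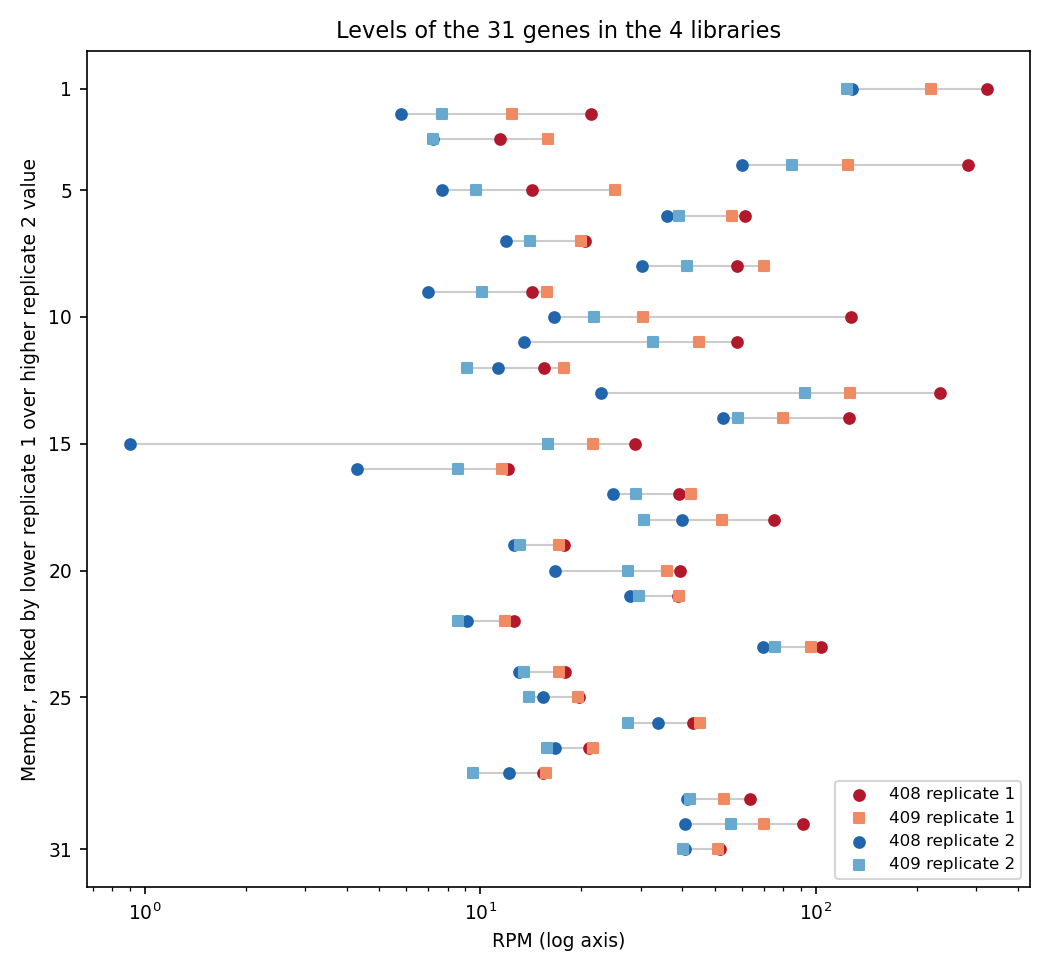
Level of each of the 31 genes (rows, ranked from 1 at the top by the ratio the rule used) in RPM on a log axis, with 1 point per library and a grey line over the range. In every row both red and orange points (replicate 1) lie to the right of both blue points (replicate 2), as the rule required, and the gap between the colours narrows from a ratio of 1.72 in the top row to 25% above in the bottom row.

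The 4 genes described by ID were the leading ones by that ratio among genes whose mean log2 level was higher in 408, and among genes whose mean log2 level was lower in 408. Csa2G369020 (chromosome 2 by its ID) had 323 RPM in 408 replicate 1 and 220 RPM in 409 replicate 1, against 128 RPM in 408 replicate 2 and 124 RPM in 409 replicate 2. Its replicate 2 values were close together, and the lines stood apart in the replicate 1 libraries. These values rest on about 4039 and 3019 reads in replicate 1 and 1765 and 1514 reads in replicate 2.

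Csa4G608130 (chromosome 4) had 21.4 RPM in 408 replicate 1 and 12.4 RPM in 409 replicate 1, against 5.8 RPM in 408 replicate 2 and 7.7 RPM in 409 replicate 2. The library of line 408 was the highest of the 4 in replicate 1 and the lowest in replicate 2. About 80 to 267 reads stood behind each value, and the 95% exact Poisson interval, which covers counting error only, was 10.6 to 14.4 RPM in 409 replicate 1 and 6.20 to 9.39 RPM in 409 replicate 2.

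Csa4G075200 (chromosome 4) had 11.4 RPM in 408 replicate 1 and 15.9 RPM in 409 replicate 1, against 7.2 RPM in both replicate 2 libraries. Its counting interval was 9.57 to 13.4 RPM in 408 replicate 1, and the higher limit in the replicate 2 libraries was 8.73 RPM in 408 and 8.85 RPM in 409. Csa4G377160 (chromosome 4) had 14.2 RPM in 408 replicate 1 and 25.2 RPM in 409 replicate 1, against 7.7 RPM in 408 replicate 2 and 9.7 RPM in 409 replicate 2. In these last 2 genes 409 replicate 1 was the highest library, whereas in Csa2G369020 and Csa4G608130 it was 408 replicate 1.

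**Figure D2:**
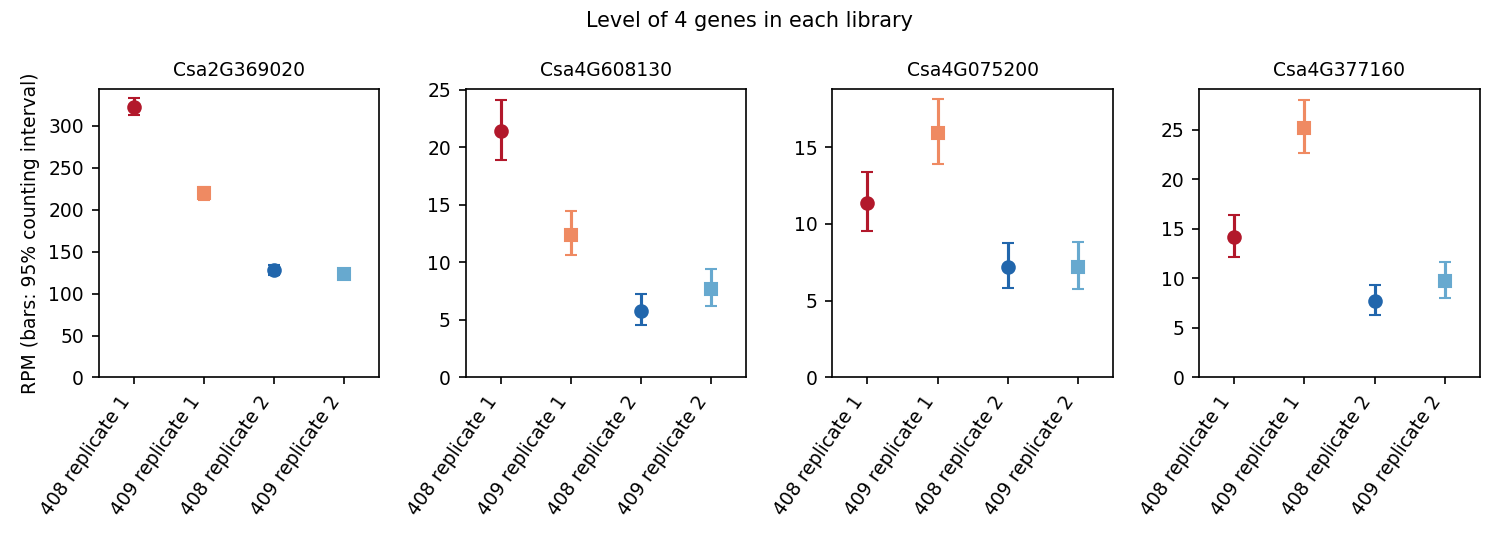
RPM of Csa2G369020, Csa4G608130, Csa4G075200 and Csa4G377160 in each library, on axes that start at 0; bars are 95% exact Poisson intervals of the approximate reads and cover counting error only. The replicate 1 libraries on the left of each panel lie above the replicate 2 libraries on the right, and in Csa4G075200 the lowest interval of replicate 1 (from 9.57 RPM) comes close to the highest of replicate 2 (to 8.85 RPM).

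The excess was larger in line 408 than in line 409 for most of the genes. Replicate 1 over replicate 2 was 1.26 to 32.1 in 408 (median 1.72) and 1.254 to 2.60 in 409 (median 1.40), and it was the larger in 408 in 24 of the 31 genes and in 409 in 7. It was the larger in 408 for 24 genes after median-of-ratios rescaling and for 26 after quantile normalization. The share of all genes with enough level that had the larger ratio in 408 was not counted. The 24 of 31 is therefore not read as particular to these genes, which the rule chose on the same values. At least 1.5-fold was reached by 20 genes in 408 and by 10 in 409, of which 7 reached it in both lines. Among the 11692 genes with enough level, 8.30% reached 1.5-fold in 408 and 7.88% in 409. In the 31 genes 408 replicate 1 was the highest of the 4 libraries in 21 and 408 replicate 2 the lowest in 21, and 16 genes had both.

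In 5 of the genes the excess in 408 was at least 4-fold while that in 409 was 1.36 to 1.47. All 5 had 408 replicate 1 as their highest and 408 replicate 2 as their lowest library. One, with a chromosome 3 ID, had 28.9 RPM in 408 replicate 1 and 21.6 RPM in 409 replicate 1, against 0.9 RPM in 408 replicate 2 and 15.9 RPM in 409 replicate 2. Here 1 library, 408 replicate 2, stood far below the other 3.

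Another chromosome 3 gene had 235 RPM in 408 replicate 1 and 127 RPM in 409 replicate 1, against 22.8 RPM in 408 replicate 2 and 92.7 RPM in 409 replicate 2. A chromosome 2 gene had 127 RPM in 408 replicate 1 and 30.5 RPM in 409 replicate 1, against 16.6 RPM in 408 replicate 2 and 21.8 RPM in 409 replicate 2. In this gene it was 408 replicate 1 that stood apart, and the other 3 libraries lay within 16.6 to 30.5 RPM. The remaining 2, with chromosome 7 and chromosome 1 IDs, had 284 and 58.0 RPM in 408 replicate 1 and 124 and 44.9 RPM in 409 replicate 1. Their values were 60 and 13.5 RPM in 408 replicate 2, and 84.6 and 32.7 RPM in 409 replicate 2.

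**Figure D3:**
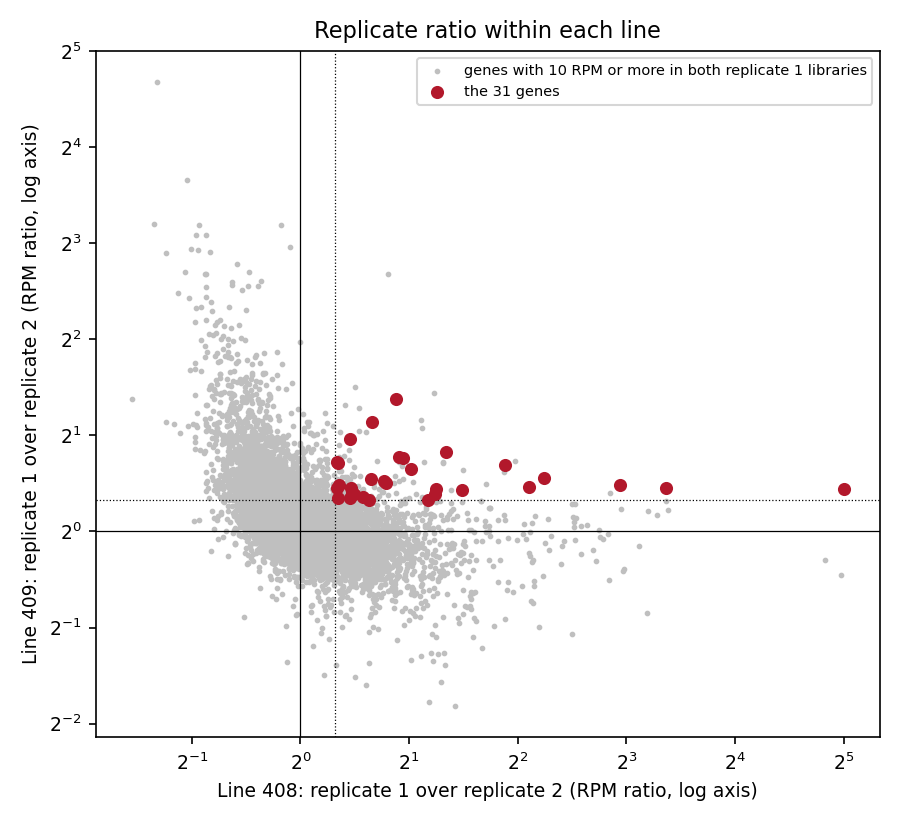
Replicate 1 over replicate 2 as an RPM ratio in line 408 (horizontal) and line 409 (vertical), on log axes, for the 31 genes (red) and the 11692 genes with enough level (grey); solid lines mark a ratio of 1 and dotted lines the 25% margin. The red points spread along the 408 axis as far as 32.1 and stop at 2.60 on the 409 axis. Of the 145 genes with a 25% excess within both lines, 114 are grey because their lower replicate 1 value was less than 25% above the higher replicate 2 value.

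Another 14 genes had lines that lay close together under both replicate numbers, with the higher line at most 25% above the lower. In these the mean of replicate 1 was 1.27 to 1.63 times that of replicate 2, with a median of 1.38, against 1.43 to 4.11 and a median of 1.90 in the other 17 genes. The pair nearest each other in the list belonged to this set: 2 chromosome 3 IDs that follow each other with no listed gene between them. The first had 17.9 RPM in 408 replicate 1 and 17.2 RPM in 409 replicate 1, against 13 RPM in 408 replicate 2 and 13.5 RPM in 409 replicate 2. The second had 38.9 and 39.2 RPM in replicate 1 of 408 and 409, against 28 and 29.7 RPM in replicate 2 of 408 and 409.

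Membership depended on how the libraries were scaled, and most in the genes whose lines lay close together. After median-of-ratios rescaling the rule took 22 genes, of which 21 were among the 31, and after quantile normalization it took 12, of which 11 were among the 31. Of the 14 genes with close lines, 6 stayed under median-of-ratios and 2 under quantile scaling, against 15 and 9 of the other 17. Under both scalings all 31 still had a lower replicate 1 value above the higher replicate 2 value. The ratio of Csa2G369020 was 1.67 and 1.69 under the 2 scalings and that of Csa4G608130 was 1.52 and 1.37. Csa4G075200 and Csa4G377160 stayed in under median-of-ratios, at 1.46 and 1.35, and dropped below the limit under quantile normalization, at 1.23 and 1.16.

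The limit of 25% did not fall at a gap in the values. Just inside it, 5 genes had ratios up to 1.263, and just outside it the nearest 5 had ratios of 1.238 to 1.249. From 20% to below 25% above there were 20 genes, and from 25% to below 30% there were 10. The gene nearest the limit inside it had 51.9 RPM in 408 replicate 1 and 51 RPM in 409 replicate 1, against 40.8 RPM in 408 replicate 2 and 40.2 RPM in 409 replicate 2. The nearest gene outside it had 58.6 RPM in 408 replicate 1 and 35.6 RPM in 409 replicate 1, against 28.5 RPM in 408 replicate 2 and 25 RPM in 409 replicate 2.

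Genes supported by few reads were the most frequent among the 31. A mean below 20 RPM was found in 14 of them, or 0.682% of the 2053 genes of that class with enough level. From 20 to below 50 RPM there were 9, or 0.204% of 4401 genes, and from 50 to below 500 RPM there were 8, or 0.153% of 5238 genes. At 10 RPM a library held about 123 to 138 reads, for which counting error alone gives a coefficient of variation of 8.51% to 9.03%. The part of counting error in the choice of the low genes was not tested. The minimum of 10 RPM applied to the replicate 1 libraries only. Near it, a gene lower in replicate 2 enters the class below 20 RPM, while a gene of the same mean higher in replicate 2 may not. The limit therefore favours a larger share in that class, and the shares are not read against each other. The median ratio of replicate 1 to replicate 2 means was 1.59 below 20 RPM, 1.57 from 20 to below 50 RPM and 1.82 above.

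The lines were then compared within the 31 genes, which addresses the study's own question of which genes differ between long and short fruits. By the rule, 408 replicate 1 lies above 409 replicate 2 and 409 replicate 1 above 408 replicate 2, so the lines overlap in every one of these genes. In limma on log2(RPM + 1), 0 of the 31 passed a Benjamini-Hochberg adjusted p of 0.05 over all genes, the smallest adjusted p among them being 0.419, against 27.2% of the 17391 tested genes. At an unadjusted limma p under 0.05 the counts were again 0 of 31, against 46.9% of all tested genes. Nothing is read from these counts, since the choice of genes fixed the overlap and widened the spread within each line. The minimum of 10 RPM in both replicate 1 libraries was enough to place all 31 in the fit.

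The log2 difference of 408 minus 409 had a median of 0.00 over the 31 genes and 0.06 over all tested genes, with a range of -1.37 to 0.83 in the 31. It was positive in 16 genes and negative in 15, against 53.7% positive over all tested genes. In size its median was 0.17 in the 31 genes and 0.47 over all tested genes. A smaller size in the 31 is favoured by the rule, which limits the line difference of each member. In Csa2G369020 the difference was 0.30, with an SE of 0.51 and an adjusted p of 0.665 in limma, and in Csa4G608130 it was 0.19, with an SE of 0.60 and an adjusted p of 0.819. In Csa4G075200 it was -0.22, with an SE of 0.41 and a limma adjusted p of 0.693, and in Csa4G377160 it was -0.54, with an SE of 0.51 and an adjusted p of 0.435. Each of these 4 differences was smaller than the mean difference between the pools of a line. The rule fixed that in advance for all 31 genes, so nothing is read from it. By the rule, leaving out a replicate 1 library also lowers the mean of its line, and leaving out a replicate 2 library raises it. Line 408 was the higher in 0 of the 31 genes without 408 replicate 1 and in 4 without 409 replicate 2. It was the higher in 30 without 408 replicate 2 and in 25 without 409 replicate 1. The turned signs of the named genes follow these directions, so nothing is read from them. Leaving out 1 library turned the sign in Csa2G369020 and Csa4G608130 (without 408 replicate 1 or 409 replicate 2), in Csa4G075200 (without 408 replicate 2 or 409 replicate 1) and in Csa4G377160 (without 409 replicate 1).

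The sign of the line difference often changed with the replicate number. Line 408 was higher than 409 among the replicate 1 libraries in 21 of the 31 genes and among the replicate 2 libraries in 9, with 1 tie. It was higher in replicate 1 and lower in replicate 2 in 16 genes, and the opposite held in 4. Among all tested genes 408 was higher in 52.3% in replicate 1 and in 53.8% in replicate 2. The share of all tested genes whose sign changed was not counted. The rule leaves out genes whose line differences are large beside their replicate difference, which favours a changing sign in the 31. These counts moved with the scaling, to 19 and 5 of the 31 after median-of-ratios and to 14 and 4 after quantile normalization, where 408 was no longer the higher line in most of the genes in replicate 1. On the log2(RPM + 1) scale, the size of the line difference over the 31 genes had a median of 0.14 in replicate 1 and 0.28 in replicate 2. Over all tested genes the medians were 0.34 and 0.64, and the rule favours the smaller size in the 31.

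**Figure D4:**
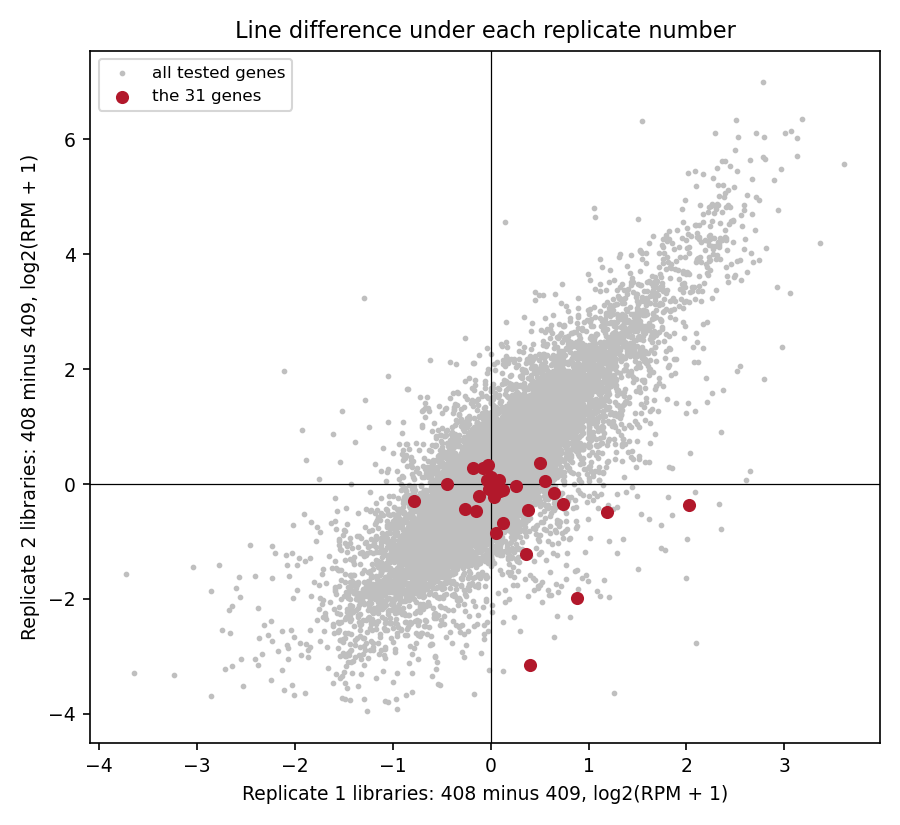
Difference of 408 minus 409 in log2(RPM + 1) among the replicate 1 libraries (horizontal) and among the replicate 2 libraries (vertical), for the 31 genes (red) and all 17391 tested genes (grey). The grey points follow a rising band, while 16 red points lie in the lower right area, down to a difference of -3.15. In that area 408 was higher in replicate 1 and lower in replicate 2. The rule kept out genes whose line differences were large beside their replicate difference, which favours red points away from the ends of the band.

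The 31 genes were spread over the genome as far as the IDs show it. Reading the digit after Csa as the chromosome, by the naming convention of such IDs, each of the 7 chromosomes held 3 to 7 of them. They were 0.208% to 0.356% of the genes with enough level on a chromosome, lowest on chromosome 2 and highest on chromosome 7. Apart from the 2 adjoining IDs described above, the closest pair had 12 listed genes between them, also on chromosome 3. It comprised the gene with 0.9 RPM in 408 replicate 2 and a gene with 14.2 RPM in 408 replicate 1 and 15.8 RPM in 409 replicate 1, against 7 RPM in 408 replicate 2 and 10.1 RPM in 409 replicate 2. The next pair had 78 listed genes between them.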

How the data were processed

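Poly(A)-selected RNA was made into strand-keeping libraries, per the labels' protocols. TopHat was the aligner, per the submitters' processing notes; its version, the build, the counter and the use of strand were not given in the sources used here. Overlapping genes and near-identical copies may therefore share reads. The authors deposited RPM values to 1 decimal, with no correction for gene length and column sums of 1000000 up to rounding. All 4 columns matched a sample title and 0 stayed unused.

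Depth was found from the steps between low RPM values (up to 30 RPM, searching 8000000 to 20000000 reads), a method tested on simulated libraries. A single read equals 0.0724 to 0.0816 RPM. Rounding is coarser than that, which kept whole reads from being recovered, and count tests were left out. Read numbers are approximate, and intervals cover counting error only.

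The line comparison used limma 3.58.1 (R 4.3.3) with a trend and no covariates, on log2(RPM + 1) of genes reaching 1 RPM in 2 libraries, with Benjamini-Hochberg adjustment and a threshold of 0.05, after a test on simulated data. The labels do not say that pools of a line were grown or extracted separately, so p-values measure the spread between these pools. In a design of 2 against 2, the exact permutation p is at least 0.333. Log2 fold changes understate low genes.

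The genes named by ID were, among those with a positive and among those with a negative line difference, the 2 with the largest ratio of the lower replicate 1 to the higher replicate 2 value. The members and all choices were made with earlier results of these data known. Lists defined by product names were not used, since no product names were at hand. Alternatives were other limits in the rule, pseudocounts of 0.1 and 0.5, other filters, median-of-ratios and quantile scaling, no trend, a block for the replicate number, and fits without each library. A block with the replicate numbers crossed was added without being planned. Python 3.11.15 (numpy 2.4.6; pandas 2.3.3; scipy 1.17.1; matplotlib 3.10.9) served for the rest.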

Additional observations from a re-analysis of the deposited data

How the results depend on the processing

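The number of genes taken by the rule was 31 as given, 22 after median-of-ratios and 12 after quantile scaling, 40 with a minimum of 5 RPM, 20 with a minimum of 20 RPM, 3 at a ratio of 1.5, 0 at a ratio of 2, and 32 with no upper limit on the mean. The median log2 excess of replicate 1 over replicate 2 in the 31 genes was 0.74 and ran over 0.58 to 0.72 without 1 library, in genes chosen on all 4. The counts of genes higher in 408 under each replicate number, and of genes with the larger excess in 408, were rescaled as alternatives chosen after seeing the data. For replicate 2 the count was 9 as deposited, 5 after median-of-ratios and 4 after quantile scaling. The count of the 31 genes called between the lines by limma stayed at 0 under its 13 alternatives, with adjusted p of the 31 genes of 0.0896 to 1. In 5 of these, with no filter and without each library, 0 of all tested genes were called either, so they could not have called a member. In the other 8, limma called 1356 to 8605 of all tested genes. At an unadjusted p under 0.05 the count was 5 of the 31 without 408 replicate 1 (41.8% of all tested genes), 3 without 408 replicate 2 (23.0%) and 0 in the other 11 (22.9% to 57.5%). The median line difference of the 31 genes was 0.00, and -0.06 after median-of-ratios and -0.14 after quantile scaling, where the median of all genes moved to -0.01 and -0.07. Relative to all genes it was -0.06, -0.06 and -0.07. Without 1 library it ran over -0.37 to 0.27, where the lone library of a line is taken to have the spread of the other line's pair.

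Over the alternatives, limma gave the 4 genes named by ID an adjusted p from 0.222 to 0.986. Without 1 library their line differences ran over -0.36 to 0.97 (Csa2G369020), -0.67 to 1.05 (Csa4G608130), -0.75 to 0.30 (Csa4G075200) and -1.19 to 0.10 (Csa4G377160). Reversals, favoured by the rule, were -0.36 and -0.11 for Csa2G369020, -0.67 and -0.12 for Csa4G608130, 0.07 and 0.30 for Csa4G075200, and 0.10 for Csa4G377160. After quantile scaling Csa4G608130 turned to -0.015 (cause not tested).

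With the replicate number as a block, 0 of the 31 genes were called, against 1356 of all tested genes (4738 without the block). The line differences could not move, since each line has a library under each replicate number. No label ties the number to a pairing of libraries. The replicate 1 minus replicate 2 differences of the lines correlated at -0.48 across genes. On the first component the lines lay further apart in replicate 2 than in replicate 1, which favours a negative value. Nothing about pairing is read from the correlation. With the numbers crossed, 0 of the 31 and 8605 of all genes were called. Depth limits the genes near 10 RPM most.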

Other observations

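The limit of 500 RPM on the mean left out 1 gene that met the other limits of the rule. This gene, with a chromosome 5 ID, had 1042 RPM in 408 replicate 1 and 1240 RPM in 409 replicate 1, against 605 RPM in 408 replicate 2 and 697 RPM in 409 replicate 2. Its ratio of the lower replicate 1 to the higher replicate 2 value was 1.49. The 1 gene with the opposite pattern, with a chromosome 7 ID, had 8.7 RPM in 408 replicate 1 and 7 RPM in 409 replicate 1, against 12.5 RPM in 408 replicate 2 and 11.7 RPM in 409 replicate 2.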
